A study of Mus musculus with 12 samples.

Results

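Folding and quality control of proteins in the endoplasmic reticulum (ER) and the cytosol were followed through the transcripts of 40 mouse chaperone genes. The genes were chosen by symbol, from a list of unfolded protein response, ER folding, ER-associated degradation and heat shock genes. All 40 had a row of their own among the 27179 gene IDs of the count table, 25 of them ER genes and 15 cytosolic genes. A filter on low counts left 12910 genes for testing, and 38 of the 40 passed it. The genes that did not pass were Derl3 and Hspb1.

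The cells were MC38-idAdpgkG, a derivative of the C57BL/6 mouse colon carcinoma line MC38. They carry a stably transfected construct from which doxycycline induces a mutated Adpgk (ADP-dependent glucokinase) fused to turboGFP, a model neoantigen. The degrader dTAG-13, a compound that brings a tagged protein to the cereblon ubiquitin ligase, can remove the fusion. Every group carried the construct and received 20 ng/mL mouse interferon-gamma for its whole course. For control cells nothing else was added over 51 h, and for doxycycline cells 1 µg/mL doxycycline was present for the same 51 h. Cells labelled dTAG-13 had interferon-gamma for 48 h and then also 1 µM dTAG-13 for 3 h. Cells with both agents had interferon-gamma and doxycycline for 48 h, followed by 3 h with dTAG-13 added. The series concerns neoepitopes displayed on MHC class I, whose heavy chain is folded by several of the ER chaperones described here.

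Each group had 3 libraries, which were technical replicates of 1 biological sample. SDs and p-values below thus measure how libraries of the same culture vary, and a difference between groups is one between 2 cultures. The libraries held 22165538 to 32809573 counts, and the chaperone genes took 1.795% to 1.867% of them. The level of Adpgk was 160.5 ± 2.49 CPM in control and 1338 ± 20.1 CPM in doxycycline cells (mean ± SD, n = 3), and reads of the transgene and the endogenous gene share that entry. CPM are counts per 1000000 of the scaled library size. The 8 epithelial markers summed to 0.063 to 0.71 CPM per library, with no read of Epcam or Cdx2, although the label is colon carcinoma. The 4 fibroblast markers (Col1a1, Dcn, Pdgfrb and Pdgfra) summed to 320.1 to 338.6 CPM in control, 334.8 to 350.5 with doxycycline, 352.8 to 360.6 with dTAG-13 and 298.6 to 315.9 with both agents. Dcn and Pdgfra made up nearly all of this sum, with means of 163.7 and 157.4 CPM in control, against 5.28 for Pdgfrb and 0.042 for Col1a1. With doxycycline the mean of Dcn was lower (142.7) and that of Pdgfra higher (189.8). With dTAG-13 they were 199.0 and 151.9, and with both agents 150.4 and 148.7. The part of these differences in the results below was not tested. The 5 leukocyte markers stayed at or below 0.1 CPM in sum, and the 2 endothelial markers at 1.92 to 4.15 CPM.

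Proteins that enter the ER fold with the help of the Hsp70 chaperone BiP, encoded by Hspa5, the Hsp90 chaperone encoded by Hsp90b1, the lectin chaperones calnexin and calreticulin, and protein disulfide isomerases. When unfolded proteins accumulate, the sensors Ire1 (Ern1), Atf6 and Perk (Eif2ak3) start the unfolded protein response. Ire1 splices the Xbp1 transcript, and spliced Xbp1 and cleaved Atf6 induce chaperones and the ER-associated degradation (ERAD) machinery, which passes misfolded proteins to the cytosolic proteasome. In the cytosol, the factor Hsf1 induces Hsp70, Hsp90 and their co-chaperones. Calnexin, calreticulin and Pdia3 are also known for their work on MHC class I. Counts per gene do not show Xbp1 splicing, Atf6 cleavage or protein levels.

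Many ER chaperone promoters are known for the ER stress response element, which Atf6 and Xbp1 recognise with the factor NF-Y. The RefSeq promoter table of GRCm38.p6 (250 bases before to 50 after the start) held 31 of the 40 genes. The letters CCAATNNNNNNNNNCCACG, searched on both strands, were found in the promoters of 9 of these 31 genes (29.03%), against 37 of 27025 genes of the table (0.137%). All 9 were among the 21 ER genes with a promoter entry, and none among the 10 cytosolic genes. The stretches around the matches are shown because the same letters stand before genes whose transcripts differed in direction below. Each reads 5′ to 3′ along the gene, capitals mark the match, and a match that starts with CGTGG holds the element on the other strand.
Hspa5 (chr2:34772013-34772055, plus strand): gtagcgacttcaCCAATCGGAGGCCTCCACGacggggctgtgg
Hsp90b1 (chr10:86705521-86705668, minus strand): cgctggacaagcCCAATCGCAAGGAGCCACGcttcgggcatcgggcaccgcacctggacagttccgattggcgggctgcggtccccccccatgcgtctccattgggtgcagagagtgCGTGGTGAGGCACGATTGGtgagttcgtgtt
Calr (chr8:84847063-84847105, minus strand): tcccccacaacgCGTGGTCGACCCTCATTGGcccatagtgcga
Canx (chr11:50325788-50325830, minus strand): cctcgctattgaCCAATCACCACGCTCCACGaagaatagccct
Pdia6 (chr12:17266479-17266521, plus strand): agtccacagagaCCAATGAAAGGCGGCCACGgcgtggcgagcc
Creld2 (chr15:88819508-88819550, plus strand): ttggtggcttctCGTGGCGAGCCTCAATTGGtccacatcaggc
Dnajc3 (chr14:118937815-118937857, plus strand): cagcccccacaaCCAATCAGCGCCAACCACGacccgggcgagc
Syvn1 (chr19:6046520-6046562, plus strand): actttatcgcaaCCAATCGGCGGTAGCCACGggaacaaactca
Derl3 (chr10:75893230-75893272, plus strand): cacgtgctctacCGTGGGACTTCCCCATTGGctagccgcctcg
The Hsp90b1 stretch holds 2 matches, 1 on each strand, and the others hold 1 each. The last letters of the element, CCACG, searched alone on both strands, were in 24 of the 31 promoters (77.42%) and in 35.482% of all genes of the table. The heat shock element GAANNTTCNNGAA, on both strands, was in 1 of the 31, Hsph1, and in 0.662% of all genes. A match is a description of letters, and its use by a factor was not measured.

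Compared per kilobase of transcript in control cells, the levels of the 40 genes ran over several orders of magnitude. The cytosolic Hsp90 gene Hsp90ab1 was the highest at 1384 CPM per kb, followed by its ER relative Hsp90b1 at 777.8 and Hspa5 at 659.5. Pdia3 (478.8), the Hsp70-Hsp90 linker Stip1 (394.2) and P4hb (355.9) came next, and Canx (333.2) and Calr (328.8) were close to each other. The levels of the sensors were low, with 24.6 CPM per kb for Atf6 and 8.41 for Ern1. At the bottom were Hspa1b (1.79), Cryab (0.705), Derl3 (0.139), Hspa1a (0.109) and Hspb1, which had no read in control. Hspa1a and Hspa1b are near-identical copies, and reads that match both may have been left out, so their places are uncertain. Over all 12 libraries, 24 of the 39 neighbouring pairs in this order overlapped, among them Stip1 with P4hb and Canx with Calr, so that their order is not fixed. The first 4 genes did not overlap with their neighbours.

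**Figure D1:**
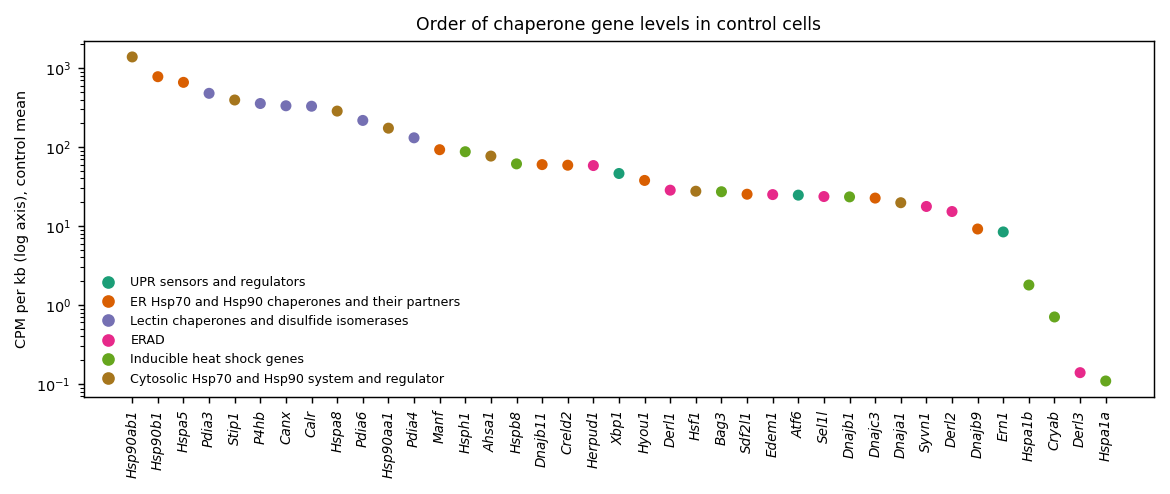
Mean level of each chaperone gene in the 3 control libraries, in CPM per kb of transcript on a log axis, ordered from high to low and coloured by role. Hsp90ab1 stands at 1384 and Hspa1a at 0.109, and Hspb1, with 0 reads in control, is not drawn. Reads that match both Hspa1a and Hspa1b may have been left out.

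Doxycycline against control asked which transcripts differed once doxycycline, which induces the transgene, was present. Since every group carried the construct, effects of the drug itself and of the induced transgene cannot be told apart. The same holds for doxycycline among cells with dTAG-13. By the edgeR quasi-likelihood test, 14 of the 38 genes differed at a Benjamini-Hochberg adjusted p under 0.05, 4 higher and 10 lower, where 33.5% of all tested genes were called. Scaled by library size only, the split was 7 higher and 8 lower, and without control replicate 1 only 2 were higher. The median log2 fold change of the 38 was -0.045, against -0.01 over all genes. Sel1l, Edem1, P4hb and Hsp90b1 rose, and Hspa5, Dnaja1, Dnajb1 and Hsph1 had the largest falls.

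For dTAG-13 against control, the effect of the degrader without induced target, 23 of 38 were called, 11 higher and 12 lower, and 62.1% of all genes. With scaling by library size only, the calls were split into 17 higher and 8 lower. Sdf2l1, Dnajb9, P4hb and Derl2 had the largest increases, and Bag3, Hsph1, Hsp90ab1 and Hspa8 the largest decreases. When dTAG-13 was added to doxycycline cells, 31 of 38 were called, 16 higher and 15 lower, and 64.1% of all genes. The median log2 fold change was -0.011 in the former comparison and -0.002 in the latter, against 0.019 and 0.003 over all genes. Doxycycline among cells with dTAG-13 gave 14 of 38 called, 7 in each direction, and 20.4% of all genes. Without TMM factors, scaled by library size only, the split was 2 higher and 13 lower. The 14 became 9 after the length and GC correction described below, without dTAG-13 replicate 3, and without replicate 1 of the cells with both agents. Without that replicate 1, the higher calls became 4, and without dTAG-13 replicate 2 or 3 the lower calls became 4.

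**Figure D2:**
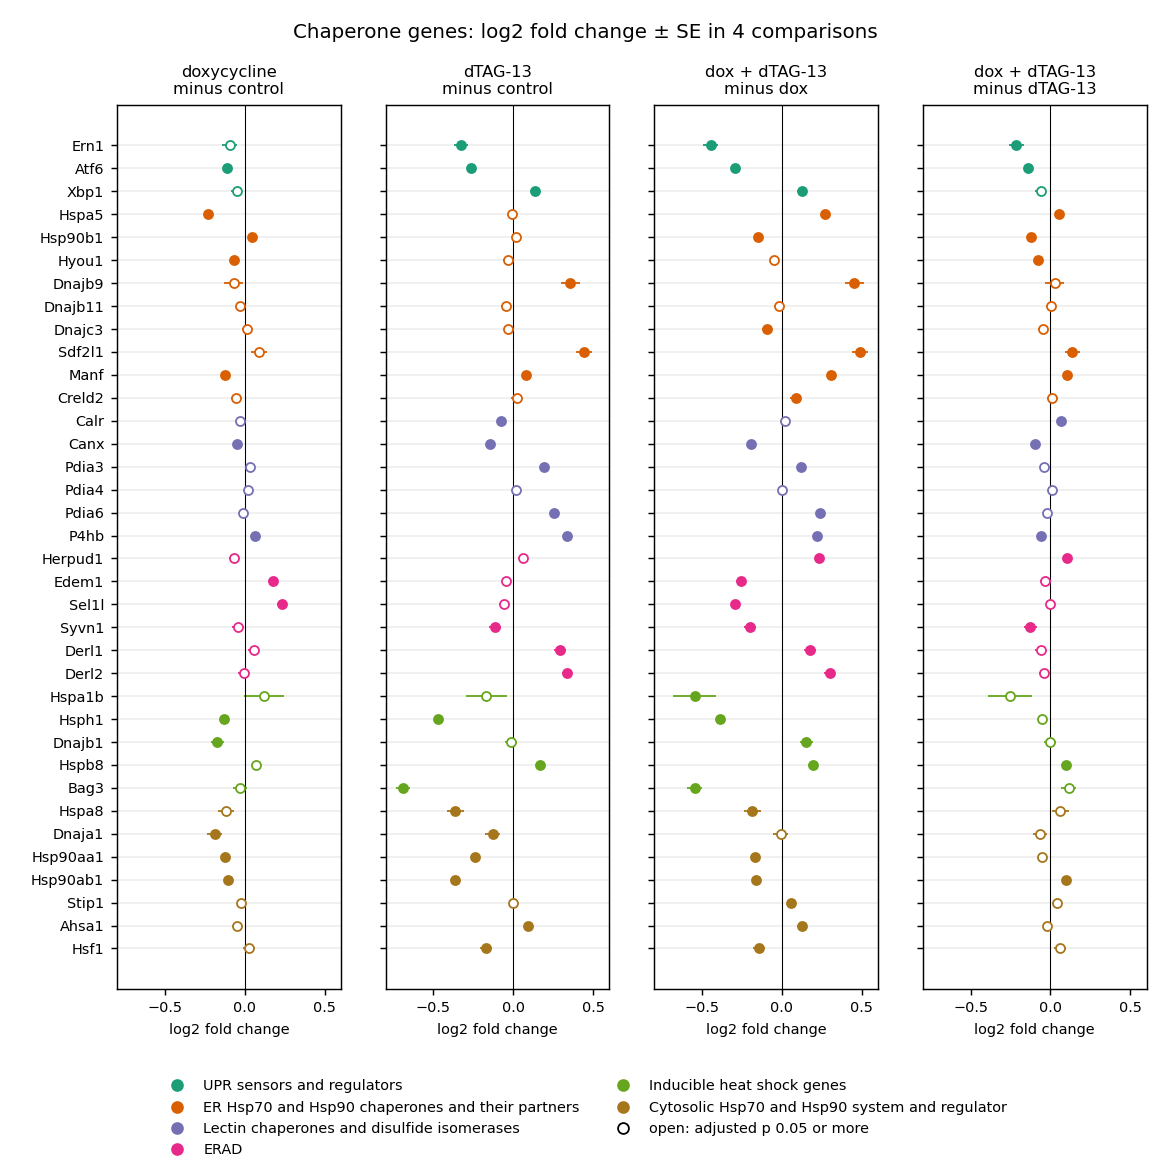
Log2 fold change ± SE of 36 chaperone genes (rows, coloured by role) in the 4 comparisons (panels); filled points had an edgeR adjusted p under 0.05. Hspa1a and Cryab, with few reads, are not drawn. Bag3 lies furthest to the left with dTAG-13 (-0.69) and Sdf2l1 furthest to the right for dTAG-13 added to doxycycline (0.49).

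The sensors and regulators of the unfolded protein response comprised Ern1, Atf6 and Xbp1. All 3 were called in both dTAG-13 comparisons, Ern1 and Atf6 lower and Xbp1 higher, against 62.1% (without doxycycline) and 64.1% (with it) of all genes. After correction for transcript length and GC content, 1 was called in the former and none in the latter. The corrected shares of all genes were 56.91% and 55.04%. Ern1 (chr11:106397620-106487796), the Ire1 kinase and RNase, had 57.0, 62.3 and 56.1 CPM in control, 55.7, 52.5 and 56.1 with doxycycline, 48.9, 47.1 and 43.8 with dTAG-13, and 40.6, 39.0 and 41.0 with both. The libraries with dTAG-13 were below those without it, and those with both agents were the lowest. Its log2 fold change was -0.33 (SE 0.0449, edgeR adjusted p 3.75e-08) for dTAG-13 against control and -0.45 (SE 0.0469, adjusted p 5.67e-11) when added to doxycycline. Atf6 (chr1:170704457-170868585), the membrane-bound transcription factor, had 175.9, 177.5 and 181.2 CPM in control, 168.7, 160.8 and 165.9 with doxycycline, 150.8, 149.9 and 144.3 with dTAG-13, and 132.2, 135.6 and 136.4 with both. No groups overlapped, with control the highest and both agents the lowest. Atf6 fell by 0.26 (adjusted p 3.11e-11) and by 0.29 (adjusted p 3.31e-12) on the log2 scale in the same edgeR comparisons. Both genes have long transcripts, of 6946 and 7246 bases, and after correction for transcript length and GC content neither fall was called. The corrected values were -0.03 and -0.08 for Ern1, and -0.045 and 0.01 for Atf6. Scaled by library size only, the former Atf6 value was -0.17, still called.

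Doxycycline went with lower Ern1 and Atf6 in the presence of dTAG-13, with edgeR log2 fold changes of -0.21 (SE 0.0476, adjusted p 0.000863) and -0.14 (SE 0.0278, adjusted p 0.000236), and these calls stood after the correction at -0.18 and -0.11. Without dTAG-13, Atf6 fell by 0.11 (edgeR adjusted p 0.00124; -0.17 after the correction), while the Ern1 value of -0.095 was not called (adjusted p 0.0968), except without control replicate 3 (-0.13) and after the correction (-0.13). Xbp1 (chr11:5520641-5525993), the factor whose transcript Ire1 splices, had 94.6, 100.3 and 100.4 CPM in control, 98.3, 95.3 and 91.3 with doxycycline, 107.1, 108.1 and 109.7 with dTAG-13, and 105.9, 101.5 and 104.0 with both. Its libraries with dTAG-13 lay above those without it in each pair of groups compared. The log2 fold changes were 0.14 (SE 0.0323, edgeR adjusted p 0.0003) and 0.13 (SE 0.033, adjusted p 0.000886), the latter not called once corrected for length and GC at 0.046. The former was 0.08 after that correction and 0.23 with scaling by library size only, both called. For doxycycline, Xbp1 values of -0.05 (adjusted p 0.244) and, with dTAG-13, -0.06 (adjusted p 0.189) were not called, except the latter with scaling by library size only (-0.096).

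Among the 9 ER Hsp70 and Hsp90 chaperones and their partners, 4 were called for doxycycline against control (1 higher, 3 lower), 3 for dTAG-13 against control (all higher), and 7 on addition of dTAG-13 to doxycycline cells (5 higher, 2 lower), against 33.5%, 62.1% and 64.1% of all genes. For dTAG-13 against control, 6 were called after the length and GC correction, 2 higher and 4 lower, and 6, all higher, with scaling by library size only. The summed level of the group was 5720 ± 33.4 CPM in control, 5420 ± 17.6 with doxycycline, 5754 ± 43.7 with dTAG-13 and 5649 ± 79.98 with both (mean ± SD, n = 3). Hspa5 and Hsp90b1 made up most of this sum. Hspa5 (BiP, chr2:34772090-34776529) had 2432, 2444 and 2390 CPM in control, 2054, 2068 and 2079 with doxycycline, 2422, 2411 and 2382 with dTAG-13, and 2517, 2452 and 2514 with both. The doxycycline libraries were thus the lowest of all 12 and did not overlap with any other group, while control and dTAG-13 libraries overlapped.

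With doxycycline, Hspa5 fell by 0.23 on the log2 scale (SE 0.0166, edgeR adjusted p 1.46e-14). When dTAG-13 was added to those cells it rose by 0.27 (SE 0.0166, adjusted p 8.48e-18), a comparison that shares the doxycycline libraries. Without doxycycline, the dTAG-13 value of -0.01 was not called (edgeR adjusted p 0.627). That last value was called after the length and GC correction at -0.06 and, in the other direction, with scaling by library size only at 0.08. The dTAG-13 effect differed between cells with and without doxycycline by 0.28 (SE 0.0234, edgeR adjusted p 3.64e-12). With both agents Hspa5 was above dTAG-13 alone by 0.05 (adjusted p 0.0194), a call not kept under scaling by library size only, at 0.02, and without replicate 1 or 3 of both agents or replicate 3 of dTAG-13 (0.046 to 0.048). Hspa5 overlaps Rabepk in the annotation, and without a known strand setting their reads cannot be told apart.

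Manf (chr9:106888753-106891938), a secreted ER stress-inducible partner of BiP, was lowest with doxycycline and highest with both agents, as was Hspa5. It had 212.1, 208.3 and 203.7 CPM in control, 190.0, 194.4 and 188.0 with doxycycline, 223.5, 220.7 and 214.3 with dTAG-13, and 234.5, 234.5 and 239.2 with both. No 2 of these groups overlapped. Its edgeR log2 fold changes were -0.12 with doxycycline (SE 0.0253, adjusted p 0.000134), 0.31 when dTAG-13 was added (SE 0.0254, adjusted p 7.48e-14) and 0.11 for both against dTAG-13 (SE 0.0252, adjusted p 0.00189). The difference between its dTAG-13 effects was 0.23 (SE 0.0357, edgeR adjusted p 5.32e-06). For dTAG-13 against control the value of 0.08 (adjusted p 0.00732; 0.17 with scaling by library size only) was not called once corrected for length and GC (0.001), without control replicate 3 (0.056) or without dTAG-13 replicate 1 (0.06).

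Hsp90b1 (chr10:86690841-86705444), the ER Hsp90, did not follow Hspa5 although both promoters hold the ER stress response element. It had 2461, 2523 and 2534 CPM in control, 2583, 2595 and 2594 with doxycycline, 2536, 2567 and 2517 with dTAG-13, and 2331, 2301 and 2379 with both. The libraries with both agents were the lowest, with no overlap with the other groups. When dTAG-13 was added to doxycycline it fell by 0.15 (SE 0.0168, edgeR adjusted p 3.47e-10; -0.30 after the length and GC correction), and against dTAG-13 alone by 0.12 (SE 0.0168, adjusted p 5.24e-07). Its rise with doxycycline was 0.05 (SE 0.0168, edgeR adjusted p 0.0238; 0.08 with scaling by library size only), and this call was lost with DESeq2 (0.043), after the length and GC correction (0.006), and without control replicate 1 (0.031), doxycycline replicate 3 (0.043) or dTAG-13 replicate 3 (0.044). For dTAG-13 against control, the value of 0.02 was not called (adjusted p 0.322), while the correction called it lower, at -0.18, and scaling by library size only called it higher, at 0.11. The difference between its dTAG-13 effects was -0.17 (SE 0.0237, edgeR adjusted p 9.04e-07).

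**Figure D3:**
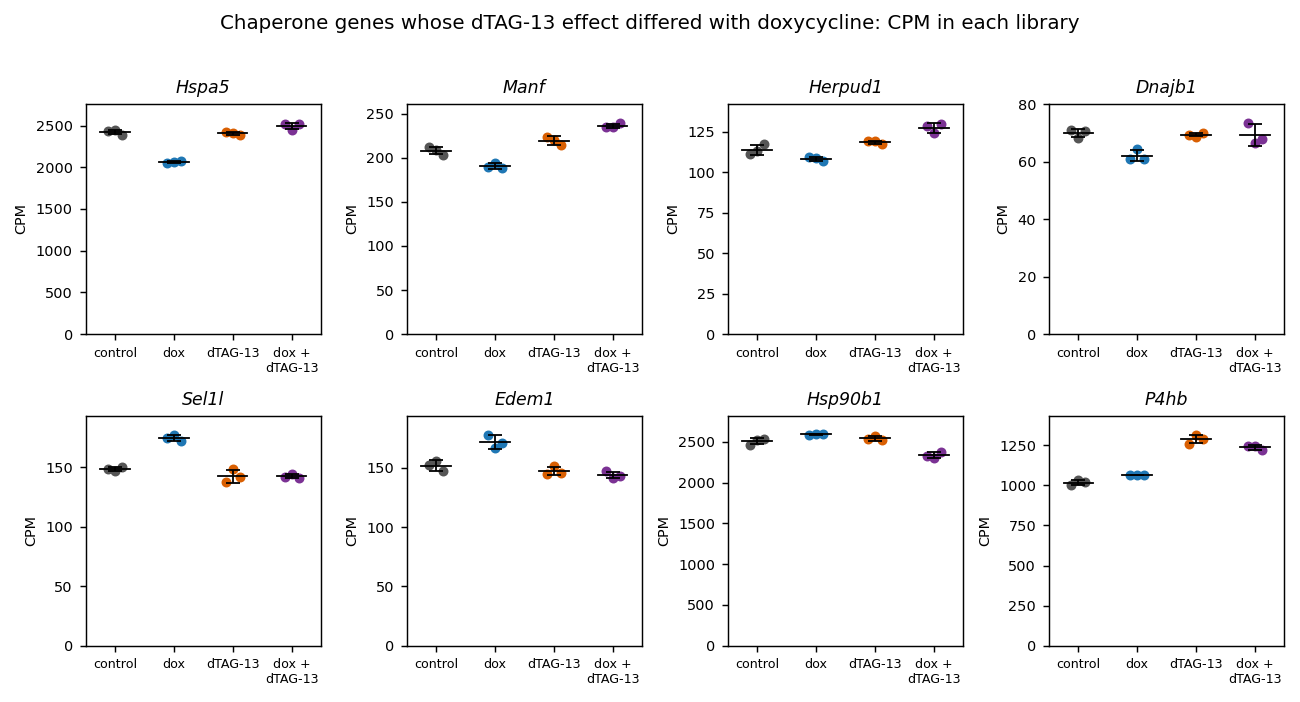
CPM in each library (points) with mean and SD (bars, n = 3) for 8 chaperone genes whose dTAG-13 effect differed with doxycycline, each panel on its own linear axis from 0. Hspa5, Manf, Herpud1 and Dnajb1 have their lowest mean with doxycycline alone, where Sel1l, Edem1 and Hsp90b1 have their highest.

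Sdf2l1 and Dnajb9 had the largest increases with dTAG-13. Sdf2l1 (chr16:17130138-17132383), a soluble ER protein that works with DnaJ partners of BiP, had 29.5, 28.6 and 25.9 CPM in control, 30.2, 28.9 and 30.5 with doxycycline, 38.4, 37.4 and 38.6 with dTAG-13, and 41.8, 40.8 and 43.1 with both. All 6 libraries with dTAG-13 were above all 6 without it. The log2 fold changes were 0.44 (SE 0.0495, edgeR adjusted p 2.94e-10) without doxycycline and 0.49 (SE 0.0495, adjusted p 2.01e-11) with it, and 0.31 and 0.26, still called, after the length and GC correction. For both agents against dTAG-13 it was 0.14 (SE 0.048, edgeR adjusted p 0.037), and that call was lost with DESeq2 (0.142), after the correction (0.062), with scaling by library size only (0.102), and without any 1 library of these groups (0.116 to 0.148) other than replicate 2 of both agents. Dnajb9 (ERdj4, chr12:44205897-44210068), a DnaJ partner of BiP, went from 21.5, 24.5 and 21.7 CPM in control to 26.7, 29.7 and 30.3 with dTAG-13, and from 21.6, 20.9 and 22.1 with doxycycline to 30.4, 27.4 and 30.5 with both. Here too the groups with and without dTAG-13 did not overlap. The Dnajb9 log2 fold changes by edgeR were 0.36 (SE 0.06, adjusted p 2.01e-06) and 0.45 (SE 0.0614, adjusted p 2.38e-08), and after the length and GC correction 0.06, not called, and 0.18, called.

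The remaining members of that group differed little. Hyou1, an ER relative of Hsp70, fell by 0.065 with doxycycline (edgeR adjusted p 0.0448) and by 0.075 with both agents against dTAG-13 (adjusted p 0.0317). The former call was lost without control replicate 1 or 2, without any doxycycline replicate and without dTAG-13 replicate 1 or 2 (-0.067 to -0.047), as it was with scaling by library size only (-0.03), no filter (-0.056) or only the groups compared (-0.05). The latter was lost without replicate 1 or 2 of both agents and without any dTAG-13 replicate (-0.075 to -0.067), with DESeq2 (-0.07), with no filter (-0.065) and after the length and GC correction (-0.04). Both dTAG-13 comparisons called Hyou1 higher after the length and GC correction, at 0.15 and 0.19. Dnajc3, which inhibits Perk, fell by 0.09 on addition of dTAG-13 to doxycycline cells (edgeR adjusted p 0.00483), a call lost after the length and GC correction. Creld2, an ER stress-inducible disulfide isomerase, rose there by 0.09 (edgeR adjusted p 0.0312) and was called in the other direction after the correction, at -0.12. The Creld2 call was lost without any 1 of 7 libraries (0.058 to 0.087), which were replicates 1 and 3 of doxycycline and of both agents, replicates 1 and 2 of dTAG-13 and control replicate 2. Dnajb11, a further DnaJ partner of BiP, was at 142.2 to 151.8 CPM in all 12 libraries and was called in none of the comparisons, but both dTAG-13 comparisons called it lower after the correction (-0.11 and -0.07), as did dTAG-13 against control without dTAG-13 replicate 1 (-0.07).

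Of the 6 lectin chaperones and disulfide isomerases, 3 were called higher and 2 lower with dTAG-13 against control, and 3 higher and 1 lower on addition of dTAG-13 to doxycycline cells. The length and GC correction gave 3 in each direction in both, and scaling by library size only 4 higher and 1 lower in both. With doxycycline against control, 1 was called higher and 1 lower, and 3 higher and none lower if scaled by library size alone. As a background, 62.1%, 64.1% and 33.5% of all tested genes had a call in these comparisons, in the order given, before correction or rescaling. The summed level was 5276 ± 53.0 CPM in control, 5294 ± 7.54 with doxycycline, 5659 ± 46.1 with dTAG-13 and 5506 ± 8.04 with both (mean ± SD, n = 3). P4hb (chr11:120560298-120573253), protein disulfide isomerase, had 1004, 1031 and 1019 CPM in control, 1064, 1066 and 1063 with doxycycline, 1261, 1314 and 1289 with dTAG-13, and 1246, 1248 and 1218 with both. No 2 of these groups overlapped, and dTAG-13 alone was the highest. Its edgeR log2 fold changes with dTAG-13 were 0.34 (SE 0.0188, adjusted p 3.72e-19) without doxycycline and 0.22 (SE 0.0188, adjusted p 2.83e-13) with it, and they differed by -0.12 (SE 0.0266, adjusted p 0.000687; -0.19 with scaling by library size only). The rise with doxycycline was 0.06 (SE 0.0188, edgeR adjusted p 0.00696) and was not called without control replicate 1, at 0.05, and was 0.10 with scaling by library size only.

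Pdia6, a disulfide isomerase found in complex with BiP, went from 451.0 to 486.5 CPM over the control libraries to 557.5 to 569.3 with dTAG-13. Its edgeR log2 fold changes with dTAG-13 were 0.25 (adjusted p 7.69e-12) without and 0.24 (adjusted p 2.87e-11) with doxycycline, and 0.14 and 0.12 after the length and GC correction, both called. Pdia3 (ERp57), the isomerase of the MHC class I loading complex, rose by 0.20 and 0.12 (edgeR adjusted p 2.67e-12 and 4.58e-07), and by 0.10 and 0.04 after the correction. Canx, the membrane-bound lectin chaperone, moved the other way. It had 1405, 1427 and 1447 CPM in control, 1371, 1386 and 1377 with doxycycline, 1296, 1299 and 1275 with dTAG-13, and 1196, 1215 and 1205 with both. No groups overlapped, and each agent went with a lower level. The edgeR log2 fold changes of Canx were -0.14 (adjusted p 2.73e-09) with dTAG-13 (-0.05 with scaling by library size only and -0.24 after the length and GC correction, both called), -0.19 (adjusted p 1.66e-12) when it was added to doxycycline, and -0.05 (adjusted p 0.0269) with doxycycline alone. The last call was lost without any 1 of 7 libraries (-0.053 to -0.035), namely control replicates 2 and 3, all doxycycline replicates and dTAG-13 replicates 1 and 2. It was also lost with scaling by library size only (-0.01), no filter (-0.04) or only the groups compared (-0.04), and was -0.09 after the length and GC correction.

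Calr, the soluble lectin chaperone, fell by 0.07 with dTAG-13 (edgeR adjusted p 0.000794) and was at 0.02, not called, when dTAG-13 was added to doxycycline (adjusted p 0.309). After the length and GC correction both values were called lower, at -0.17 and -0.09, and with scaling by library size only the former was 0.02, not called, and the latter 0.04, called higher. The difference between these effects was 0.10 (SE 0.0268, edgeR adjusted p 0.007), a call not kept under scaling by library size only, at 0.03. Pdia4 was at 310.9 to 323.6 CPM in all 12 libraries and was called in no comparison, though both dTAG-13 comparisons called it lower after the length and GC correction, at -0.10 and -0.105. Scaling by library size only called it higher with doxycycline (0.06) and with dTAG-13 (0.11), each against control. Pdia3 overlaps Catsper2 and Pdia6 overlaps Atp6v1c2, whose reads may be shared.

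Of the 7 ERAD genes, 6 were tested, and all 6 were called when dTAG-13 was added to doxycycline, 3 higher and 3 lower. Doxycycline alone went with 2 higher and none lower, and dTAG-13 alone with 2 higher and 1 lower. Over all genes, 64.1%, 33.5% and 62.1% were called in these comparisons, in that order. After the length and GC correction 3 were higher and none lower in doxycycline cells given dTAG-13, and 4 higher and none lower with dTAG-13 alone. If scaled by library size only, dTAG-13 alone went with 3 higher and none lower. Sel1l (chr12:91806043-91849157), the adaptor of the Hrd1 ubiquitin ligase, had 148.9, 146.9 and 150.6 CPM in control, 175.1, 177.1 and 171.9 with doxycycline, 137.7, 148.5 and 142.0 with dTAG-13, and 141.8, 144.8 and 141.4 with both. Edem1 (chr6:108824045-108859356), a lectin that delivers misfolded glycoproteins, had 152.6, 156.1 and 147.2 CPM in control, 177.9, 166.9 and 170.8 with doxycycline, 145.0, 151.5 and 145.8 with dTAG-13, and 147.1, 141.8 and 142.9 with both. For both genes the doxycycline libraries were the highest and overlapped with no other group, the opposite of Hspa5 and Manf.

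Sel1l rose by 0.23 with doxycycline (SE 0.0276, edgeR adjusted p 8.91e-09) and Edem1 by 0.18 (SE 0.0286, adjusted p 3.8e-06). When dTAG-13 was added, Sel1l fell by 0.29 (SE 0.0279, edgeR adjusted p 4.54e-12) and Edem1 by 0.26 (SE 0.029, adjusted p 3.64e-10). Their dTAG-13 effects with and without doxycycline differed by -0.23 (SE 0.0395, edgeR adjusted p 2.42e-05) and by -0.21 (SE 0.0409, adjusted p 0.000139). The transcripts are long, at 6300 and 6077 bases, and the falls were not called once corrected for length and GC, at -0.002 and -0.015. The doxycycline rises stayed called there, at 0.19 and 0.13, as did the differences between dTAG-13 effects, at -0.16 and -0.14. For dTAG-13 against control, Sel1l (-0.06) and Edem1 (-0.04) were not called, and the correction called both higher, at 0.16 and 0.12.

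Herpud1 (chr8:94386429-94395371), an ER membrane protein that recruits the ligase complex, had 111.1, 113.0 and 117.3 CPM in control, 109.1, 109.0 and 106.9 with doxycycline, 119.0, 119.0 and 117.5 with dTAG-13, and 128.6, 124.0 and 129.8 with both. The libraries with both agents were above all others, and those with doxycycline alone below all others. The value for doxycycline against control was -0.07 and not called (edgeR adjusted p 0.0616), except with RLE scaling (-0.075) and without control replicate 1 (-0.09). Herpud1 rose by 0.23 on addition of dTAG-13 to doxycycline cells (SE 0.0295, edgeR adjusted p 4.55e-09; 0.12 after the length and GC correction), against 0.06, not called, without doxycycline (adjusted p 0.0761). The latter was called with scaling by library size only (0.15), with the filter of 1 CPM in 3 libraries (0.066) and without control replicate 3 (0.07). The difference was 0.175 (SE 0.0415, edgeR adjusted p 0.00164), not called with scaling by library size only, at 0.105. For both agents against dTAG-13 the rise was 0.105 (SE 0.0292, edgeR adjusted p 0.0075), not called with scaling by library size only (0.07) or without replicate 3 of both agents (0.092).

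The retrotranslocation channel genes Derl1 and Derl2 rose with dTAG-13, by 0.29 and 0.34 without doxycycline (edgeR adjusted p 3.78e-09 and 1.65e-11) and by 0.175 and 0.30 with it (adjusted p 5.72e-05 and 4.2e-10). Derl2 (chr11:71007440-71019841) had 67.3, 67.5 and 65.3 CPM in control, 66.8, 65.6 and 67.2 with doxycycline, 85.2, 84.5 and 82.9 with dTAG-13, and 82.9, 81.3 and 81.5 with both. All libraries with dTAG-13 were above all without it, and Derl2 kept its calls after the length and GC correction, at 0.27 and 0.285. It overlaps Mis12 in the annotation. Syvn1, which encodes the Hrd1 ligase and overlaps Mrpl49, had 68.9, 73.3 and 74.1 CPM in control, 69.7, 73.2 and 67.5 with doxycycline, 64.8, 67.8 and 67.1 with dTAG-13, and 60.2, 62.6 and 60.2 with both. Its libraries with both agents were the lowest, and control and doxycycline overlapped. With dTAG-13 it fell by 0.115 and 0.20 (edgeR adjusted p 0.00833 and 2.18e-05), and by 0.13 with both agents against dTAG-13 (adjusted p 0.0181), the last of which was not called without replicate 1 or 3 of both agents or without dTAG-13 replicate 2 or 3 (-0.118 to -0.108). None of these Syvn1 calls stood after the correction, at 0.07, 0.01 and -0.10, and the first was not called with scaling by library size only (-0.02). Derl3 had 0 to 11 reads per library, 17 in all control libraries, 9 with doxycycline, 23 with dTAG-13 and 9 with both, which was too few to test.

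The 8 inducible heat shock genes, whose products refold or hold cytosolic proteins, were lower in sum with dTAG-13. Their summed level was 672.6 ± 0.972 CPM in control, 633.6 ± 3.803 with doxycycline, 543.6 ± 4.06 with dTAG-13 and 544.4 ± 8.41 with both (mean ± SD, n = 3). Hsph1 made up most of this sum, with means of 415.6, 379.9, 300.1 and 290.0 CPM in the same groups. Bag3 was lower with dTAG-13 as well, while Hspb8 was higher. Of the 7 tested, 3 were called for dTAG-13 against control (1 higher, 2 lower), 5 when it was added to doxycycline (2 higher, 3 lower), and 2, both lower, for doxycycline against control. The shares called over all genes were 62.1%, 64.1% and 33.5%. Bag3 (chr7:128523583-128546981), a co-chaperone that couples Hsp70 to autophagy, had 68.0, 69.0 and 71.8 CPM in control, 67.3, 71.0 and 66.1 with doxycycline, 41.9, 44.3 and 43.1 with dTAG-13, and 47.2, 50.1 and 43.1 with both. The libraries with dTAG-13 lay far below those without it, and doxycycline overlapped with control. Bag3 had the largest change of the 38 tested genes with dTAG-13 against control, with an edgeR log2 fold change of -0.69 (SE 0.0439, adjusted p 3.24e-17). When dTAG-13 was added to doxycycline it was -0.55 (SE 0.0445, adjusted p 5.08e-14). After the length and GC correction the values were -0.65 and -0.50.

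Hsph1 (Hsp110, chr5:149616843-149636498), a nucleotide exchange factor of Hsp70, had 418.8, 416.5 and 411.4 CPM in control, 381.0, 378.0 and 380.8 with doxycycline, 299.6, 299.8 and 301.1 with dTAG-13, and 292.6, 288.7 and 288.6 with both. No groups overlapped, and both agents went with lower levels. The edgeR log2 fold changes were -0.13 (SE 0.0214, adjusted p 5.64e-06) with doxycycline, -0.47 (SE 0.0215, adjusted p 7.45e-22) with dTAG-13 and -0.39 (SE 0.0217, adjusted p 4.44e-19) when it was added to doxycycline. After the length and GC correction the last of these was -0.24, still called.

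Dnajb1 (Hsp40, chr8:83608175-83612653), the DnaJ partner of cytosolic Hsp70, resembled Hspa5 rather than Bag3. It had 71.1, 68.4 and 70.6 CPM in control, 61.2, 64.6 and 60.96 with doxycycline, 69.5, 68.8 and 70.0 with dTAG-13, and 73.6, 66.5 and 67.9 with both. The doxycycline libraries were below all others. It fell by 0.17 with doxycycline (SE 0.0384, edgeR adjusted p 0.000481) and rose by 0.15 when dTAG-13 was added (SE 0.039, adjusted p 0.000712), while dTAG-13 alone gave -0.01 (adjusted p 0.794) and both against dTAG-13 gave -0.005 (adjusted p 0.951). The difference between its dTAG-13 effects was 0.17 (SE 0.0544, edgeR adjusted p 0.0228), a call lost with scaling by library size only (0.095) and without dTAG-13 replicate 2 or replicate 1 of doxycycline or of both agents (0.124 to 0.152). Hspb8, a small heat shock protein that works with Bag3, rose with dTAG-13 while Bag3 fell, by 0.17 without and 0.19 with doxycycline (edgeR adjusted p 2.54e-06 and 2.07e-07). The former was 0.26 with scaling by library size only and 0.075 after the length and GC correction, and the latter was not called once corrected for length and GC, at 0.05.

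The stress-inducible Hsp70 genes themselves were near the floor. Hspa1b (chr17:34956429-34959238) had 5.49, 5.12 and 4.44 CPM in control, 5.73, 4.90 and 5.80 with doxycycline, 4.37, 5.28 and 3.75 with dTAG-13, and 3.34, 3.65 and 4.15 with both. The libraries with both agents were below those with doxycycline alone and those of control, and the other pairs of groups overlapped. Its log2 fold change when dTAG-13 was added to doxycycline was -0.55 (SE 0.134, edgeR adjusted p 0.000491), and -0.17 (adjusted p 0.261) without doxycycline, 0.12 (adjusted p 0.492) for doxycycline and -0.26 (adjusted p 0.201) for both against dTAG-13 were not called. Hspa1a (chr17:34969359-34972156) had 15, 10 and 5 reads in control, 6, 5 and 13 with doxycycline, 8, 19 and 12 with dTAG-13, and 2, 1 and 10 with both. With these reads no edgeR comparison called it (adjusted p 0.716, 0.508, 0.341 and 0.0851 in the order of the 4 comparisons). Without replicate 3 of both agents, the 2 comparisons of that group called Hspa1a, at -2.02 and -2.69. Hspa1a and Hspa1b are near-identical copies, so their reads may have been shared between them or left out.

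Cryab, a small heat shock protein, had 9 to 38 reads per library and no call, and Hspb1 had 0 reads in the 6 control and doxycycline libraries and 2 reads in 1 library of each dTAG-13 group. A count of 0 allows up to 0.0319 CPM of Hspb1 in control and 0.0332 CPM with doxycycline, over each group's summed reads and for counting error only.

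The genes of the cytosolic Hsp70 and Hsp90 system and its regulator Hsf1 were also lower in sum with dTAG-13, at 6160 ± 37.3 CPM in control, 5772 ± 44.9 with doxycycline, 5091 ± 74.6 with dTAG-13 and 5317 ± 77.03 with both (mean ± SD, n = 3). Hsp90ab1 made up most of this sum, with means of 3489, 3247, 2714 and 2909 CPM in the same groups. Stip1 had 831.0 CPM in control and 831.3 with dTAG-13, and Ahsa1 was higher with dTAG-13. All 7 were tested. With dTAG-13 against control 5 fell and 1 rose, when dTAG-13 was added to doxycycline 4 fell and 2 rose, and with doxycycline against control 3 fell and none rose. In the same order, 62.1%, 64.1% and 33.5% of all genes were called. With scaling by library size only, the calls for dTAG-13 against control were 3 lower and 2 higher, and after the length and GC correction both dTAG-13 comparisons gave 5 lower and none higher. Hsp90ab1 (chr17:45567778-45573261), the constitutive Hsp90, had 3459, 3488 and 3520 CPM in control, 3236, 3254 and 3251 with doxycycline, 2737, 2700 and 2704 with dTAG-13, and 2890, 2958 and 2880 with both. No groups overlapped, and dTAG-13 alone was the lowest. Its edgeR log2 fold changes were -0.10 (SE 0.0157, adjusted p 1.3e-06) with doxycycline, -0.36 (SE 0.0157, adjusted p 1.25e-22) with dTAG-13, -0.16 (SE 0.0157, adjusted p 1.23e-11) when it was added to doxycycline and 0.10 (SE 0.0157, adjusted p 4.84e-06) for both against dTAG-13. The dTAG-13 effects differed by 0.20 (SE 0.0222, edgeR adjusted p 3.75e-09). With scaling by library size only, the doxycycline values were -0.07 and 0.07 and the difference 0.13, all called.

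Hspa8 (Hsc70, chr9:40801276-40805202), the constitutive Hsp70, had 897.4, 888.3 and 917.6 CPM in control, 817.1, 853.4 and 823.1 with doxycycline, 727.8, 658.1 and 717.4 with dTAG-13, and 750.7, 768.2 and 677.1 with both. The libraries with dTAG-13 were below those without it. For Hspa8 the edgeR log2 fold changes were -0.36 (SE 0.0525, adjusted p 0.000264) and, with doxycycline present, -0.18 (SE 0.0526, adjusted p 0.0135). The doxycycline value of -0.12 was not called (adjusted p 0.129), although its groups did not overlap, and that for both against dTAG-13 was 0.06 (adjusted p 0.49). Without replicate 3 of both agents, both of these Hspa8 values were called, at -0.12 and 0.12. Hsp90aa1 (chr12:110691036-110696395), the inducible Hsp90, had 584.0, 568.3 and 554.6 CPM in control, 519.1, 528.8 and 517.6 with doxycycline, 480.9, 472.8 and 493.5 with dTAG-13, and 474.8, 448.9 and 469.3 with both. It was highest in control and the 2 groups with dTAG-13 overlapped. Its edgeR log2 fold changes were -0.12 (SE 0.0231, adjusted p 3.6e-05) with doxycycline, -0.24 (SE 0.0232, adjusted p 8.03e-12) with dTAG-13 and -0.17 (SE 0.0233, adjusted p 3.82e-08) when it was added to doxycycline, and -0.055 (adjusted p 0.0911; -0.09 and called with scaling by library size only) for both against dTAG-13 was not called. The 2 dTAG-13 values of Hsp90aa1 were -0.38 and -0.28 after the length and GC correction, and the former was -0.15 with scaling by library size only.

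Dnaja1, a DnaJ partner of Hsc70, had 116.0, 106.2 and 110.5 CPM in control and 92.1, 100.9 and 98.8 with doxycycline. These libraries did not overlap, and Dnaja1 fell by 0.19 (SE 0.0446, edgeR adjusted p 0.00246). Its fall of 0.13 with dTAG-13 (edgeR adjusted p 0.0155), where the groups overlapped, was not called without control replicate 1 or dTAG-13 replicate 2 or 3 (-0.117 to -0.103), after the correction (-0.136) or with scaling by library size only (-0.04). Hsf1, the factor that induces heat shock genes, fell by 0.17 and 0.14 with dTAG-13 (edgeR adjusted p 8.53e-05 and 0.000963). The former was not called with scaling by library size only (-0.08), and the latter was -0.08 after the length and GC correction. Ahsa1, which activates the Hsp90 ATPase, rose by 0.09 and 0.12 (edgeR adjusted p 0.00231 and 0.000102), and neither call stood after the length and GC correction, at -0.05 and -0.02, while scaling by library size only gave 0.18 for the former. Stip1 rose by 0.06 on addition of dTAG-13 to doxycycline cells (edgeR adjusted p 0.00685) and was called in the other direction after the correction, at -0.05. That Stip1 call was also lost without doxycycline replicate 1 or 2 (0.041 and 0.048).

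**Figure D4:**
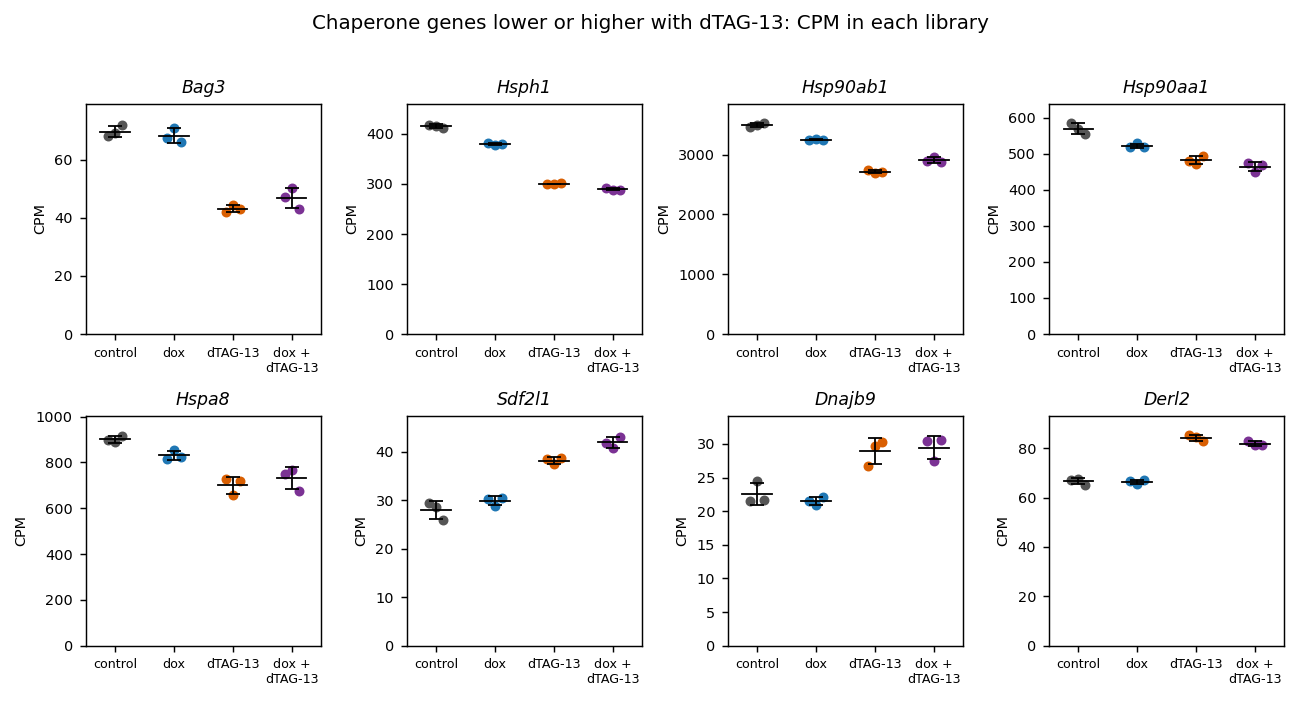
CPM in each library (points) with mean and SD (bars, n = 3) for 8 chaperone genes in the 4 groups, each panel on its own linear axis from 0. Bag3, Hsph1, Hsp90ab1, Hsp90aa1 and Hspa8 were lower in the groups with dTAG-13, and Sdf2l1, Dnajb9 and Derl2 were higher.

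The dTAG-13 effect with doxycycline minus that without it was called for 11 of the 38 genes, 6 of them positive and 5 negative, and for 22.9% of all genes. Scaled by library size only, 3 were positive and 10 negative. The positive differences were those of Hspa5, Manf, Hsp90ab1, Herpud1, Dnajb1 and Calr, and the negative ones those of Sel1l, Edem1, Hsp90b1, P4hb and Pdia3. The difference for Hspa5, Manf and Hsp90ab1 stayed positive and called, and that for Sel1l, Edem1, Hsp90b1 and P4hb negative and called, both with scaling by library size only and after the length and GC correction. Pdia3 had -0.08 (SE 0.0257, edgeR adjusted p 0.0236) and was not called after the correction (-0.055), with DESeq2 (-0.068), or without control replicate 1, doxycycline replicate 3 or replicate 1 of both agents (-0.076 to -0.055), while scaling by library size only gave -0.15. Not called were Hspa8 at 0.18 (adjusted p 0.129; 0.24 and called without replicate 3 of both agents), Hsp90aa1 at 0.07 (adjusted p 0.125; 0.09 and called without control replicate 3 or replicate 2 of both agents, and 0.11 and called after the correction), Xbp1 at -0.01 (adjusted p 0.902), Hspa1b at -0.38 (adjusted p 0.144) and Hspa1a at -1.07 (adjusted p 0.356).

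The 2 comparisons for dTAG-13, with and without doxycycline, share no library. In both, 21 chaperone genes were called, and all 21 had the same direction. They made up 91.3% of the chaperone genes called without doxycycline and 67.74% of those called with it. Over all genes these shares were 80.36% and 77.92%. Higher in both were Xbp1, Dnajb9, Sdf2l1, Manf, Pdia3, Pdia6, P4hb, Derl1, Derl2, Hspb8 and Ahsa1. Lower in both were Ern1, Atf6, Canx, Syvn1, Hsph1, Bag3, Hspa8, Hsp90aa1, Hsp90ab1 and Hsf1. Of the 6446 genes of the whole table called in both, 96.23% had the same direction. The 2 comparisons for doxycycline, with and without dTAG-13, also share no library, and there 8 chaperone genes were called in both (57.14% of each). Over all genes, those called in both were 30.73% of the calls without dTAG-13 and 50.61% of those with it. Atf6, Hyou1 and Canx were lower in both, while Hspa5, Manf, Hsp90ab1, Hsp90b1 and P4hb had opposite directions. Hyou1 and Canx lost their call for doxycycline against control with scaling by library size only, Hspa5 that for both agents against dTAG-13, and the correction ended the latter call of Hyou1 and P4hb and the former of Hsp90b1. For Atf6, Manf and Hsp90ab1 both calls stood without any 1 library, whereas Hyou1, Canx and Hsp90b1 lost their call for doxycycline against control without single libraries, Hspa5 and Hyou1 that for both agents against dTAG-13, and P4hb both (0.05 without control replicate 1, and -0.055 to -0.039 without dTAG-13 replicate 2 or 3 or replicate 3 of both agents). Among all tested genes, 72.8% of the genes called in both had the same direction.

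The 9 genes with an ER stress response element in the promoter stretches above did not move as one. When dTAG-13 was added to doxycycline, 7 of the 8 tested were called, 3 higher and 4 lower, where 64.1% of all genes were called. Hspa5 (0.27), Pdia6 (0.24) and Creld2 (0.09) rose, and Syvn1 (-0.20), Canx (-0.19), Hsp90b1 (-0.15) and Dnajc3 (-0.09) fell, while Calr (0.02) was not called. Correcting for length and GC turned Creld2 to -0.117 and ended the calls of Syvn1 (0.012) and Dnajc3 (-0.015). It also made Calr a lower call (-0.089), while Hspa5, Pdia6, Canx and Hsp90b1 kept both call and direction. With doxycycline against control, Hspa5 (-0.23) and Canx (-0.05) fell, Hsp90b1 (0.05) rose, and the other 5 tested were not called, where 33.5% of all genes were called. The Hsp90b1 call was lost after the correction, the Canx call with scaling by library size only (-0.014), and both without single libraries.

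Among the chaperone genes, the log2 fold changes with dTAG-13 went down with transcript length as they did among all genes. Across the 38 genes Spearman's rho stood at -0.499 for dTAG-13 against control and -0.544 when dTAG-13 was added to doxycycline, against -0.415 and -0.547 over 11745 genes with a known length. It was -0.071 for doxycycline against control. These are descriptions across genes that share their libraries. After the correction for length and GC content, 16 of the 23 calls for dTAG-13 against control kept their direction and 7 were lost (Atf6, Ern1, Dnajb9, Ahsa1, Syvn1, Dnaja1 and Manf). Of the 31 calls for dTAG-13 added to doxycycline, 20 kept their direction, 9 were lost (Atf6, Xbp1, Ern1, Ahsa1, Sel1l, Dnajc3, Syvn1, Hspb8 and Edem1) and 2 turned (Creld2 and Stip1). For doxycycline against control 13 of 14 were kept. The falls of Bag3, Hsph1, Hsp90ab1, Hsp90aa1, Hspa8, Hsf1 and Canx and the rises of P4hb, Pdia3, Pdia6, Derl1, Derl2 and Sdf2l1 were called in both dTAG-13 comparisons with and without the correction.

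**Figure D5:**
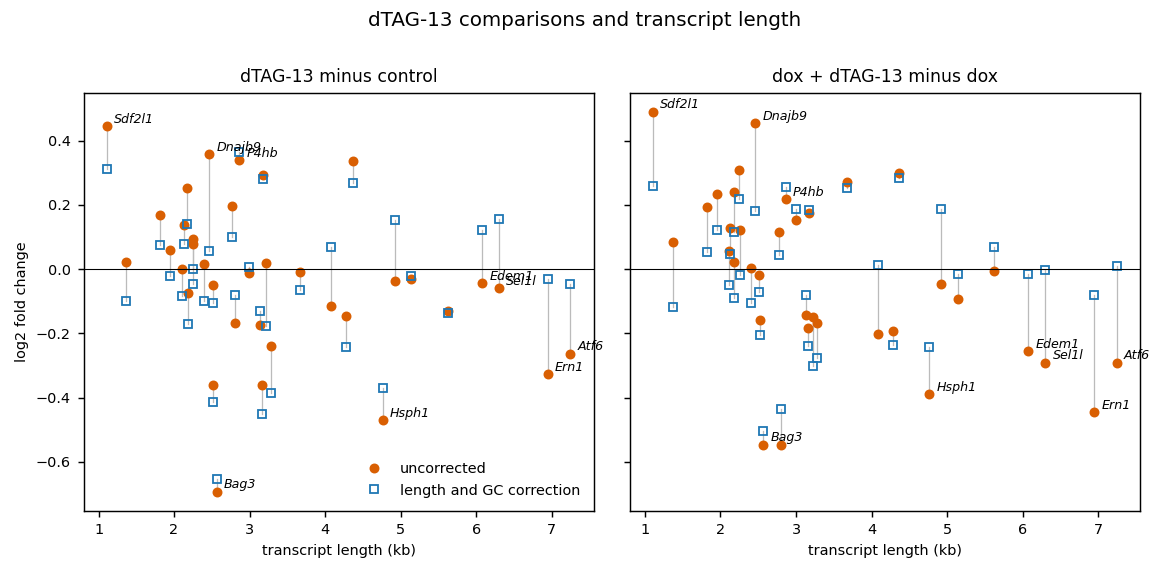
Log2 fold change of 36 chaperone genes against transcript length in kb, for dTAG-13 against control and for dTAG-13 added to doxycycline; circles are uncorrected values, squares are values after the length and GC correction, and lines join the same gene. Ern1, Atf6, Sel1l and Edem1, at the right, move upward with the correction, and Bag3 stays low, from -0.69 to -0.65 in the first panel.

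Other genes of the same pathways were read from 2 further lists. Of 40 other ER genes, all tested, 13 were called for doxycycline against control (6 higher, 7 lower), 34 for dTAG-13 against control (17 and 17), 36 for dTAG-13 added to doxycycline (18 and 18), 10 for both against dTAG-13 (2 and 8) and 12 for the difference of dTAG-13 effects (4 and 8). In the same order, 33.5%, 62.1%, 64.1%, 20.4% and 22.9% of all genes were called. Scaling by library size only split the ER list into 10 higher and 6 lower for doxycycline, 22 and 10 for dTAG-13, 2 and 15 for both against dTAG-13 and 2 and 12 for the difference. The length and GC correction gave 10 higher and 17 lower for dTAG-13 added to doxycycline, and 4 and 9 for doxycycline against control. Ero1b and Sil1, which oxidise disulfide isomerases and exchange nucleotides on BiP, rose by 0.34 and 0.32 with doxycycline (edgeR adjusted p 4.24e-06 and 8.66e-08). Vcp and Nploc4, which pull ERAD substrates from the membrane, fell by 0.75 and 0.59 with dTAG-13 (adjusted p 4.96e-25 and 3.43e-22 by edgeR). In doxycycline cells, dTAG-13 went with a rise of 0.93 in the translocon subunit gene Sec61g and a fall of 0.65 in Creb3l2 (edgeR adjusted p 0.00231 and 9.31e-14), the latter -0.29 after the length and GC correction. With both agents against dTAG-13, the ER oxidase gene Ero1a fell by 0.42 and Sil1 rose by 0.24 (edgeR adjusted p 3.13e-19 and 1.9e-05).

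The other list held 40 further chaperone genes, mainly cytosolic but with Serpinh1, whose product works in the ER. Of these, 39 were tested, and 26 were called for doxycycline against control, 3 higher and 23 lower. Their median log2 fold change was -0.093 against -0.01 over all genes, of which 33.5% were called. For dTAG-13 against control 28 were called (16 higher, 12 lower), for dTAG-13 added to doxycycline 26 (20 and 6), for both against dTAG-13 10 (8 and 2), and for the difference of dTAG-13 effects 19 (17 and 2), with a median difference of 0.117. The shares over all genes were 62.1%, 64.1%, 20.4% and 22.9%. With scaling by library size only, 15 were called for doxycycline (3 higher, 12 lower, median -0.056), 29 for dTAG-13 against control (23 and 6), 11 for both against dTAG-13 (3 and 8) and 9 for the difference (7 and 2, median 0.046). The length and GC correction turned the split for dTAG-13 against control to 5 higher and 16 lower, and gave 15 higher and 11 lower for dTAG-13 added to doxycycline. With doxycycline, the Hsp110 relative Hspa4l rose by 0.43 and the prefoldin subunit gene Pfdn6 fell by 0.33 (edgeR adjusted p 3.93e-17 and 0.0144), the latter not called without control replicate 2 or doxycycline replicate 1 or 2 (-0.315 to -0.295). With dTAG-13 the Hsp90 co-chaperone gene Fkbp5 fell by 0.64 and the prefoldin subunit gene Vbp1 rose by 0.40 (edgeR adjusted p 1.3e-18 and 4.19e-14), Vbp1 being at -0.08 after the length and GC correction. In doxycycline cells dTAG-13 went with -0.56 for Fkbp5 and 0.55 for the prefoldin subunit gene Pfdn5 (edgeR adjusted p 4.15e-16 and 3.31e-07), the latter 0.27 after the length and GC correction. For both agents against dTAG-13, Pfdn5 rose by 0.28 and the Hsp90 co-chaperone gene Ptges3 by 0.21 (edgeR adjusted p 0.00167 and 0.00941), the latter not called without replicate 1 or 2 of both agents (0.194 and 0.153).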

How the data were processed

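RNA-seq was measured in 12 libraries of MC38-idAdpgkG cells, 4 groups of 3, whose replicates are technical. Values are raw counts of reads per Entrez gene ID, deposited by the authors as 1 table. Reads were aligned with Subread, per the file headers. The submitters' processing notes name bcl2fastq 2.17, featureCounts and mm10. For the aligner version, the annotation, strand and multimapping reads, settings were not given in the sources used here. Libraries held 22165538 to 32809573 counts.

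Symbols were taken from RefSeq GRCm38.p6 by Entrez ID (25275 of 27179 IDs, and 18 more from GENCODE M21). Transcript length and GC content are those of the longest GENCODE M21 transcript of each gene, since the RefSeq tables used gave none. Genes were filtered with filterByExpr (12910 kept), scaled by TMM (factors 0.9647 to 1.035) and fitted with 1 mean per group over all 12 libraries. The two-sided robust quasi-likelihood F test of edgeR 4.0.16 (R 4.3.3, limma 3.58.1) was used, with Benjamini-Hochberg adjustment over all genes and a threshold of 0.05. The procedure was tested on simulated data. Log2 fold changes are edgeR estimates, and CPM use the TMM-scaled library sizes.

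The chaperone genes, role groups and other lists were chosen with earlier results of these data known. Values per library were given for called genes whose mean reached 1 CPM and whose groups did not overlap, taking the 4 largest rises and the 4 largest falls in each comparison and the 3 largest differences between dTAG-13 effects, while Hspa5, Xbp1, Hspa1a, Hspa1b, Dnajb1, Hspa8 and Hsp90aa1 were named throughout. Canx was given per library after its values were seen. From each list of other genes, the 2 called genes with the largest change per comparison were named. Other chaperone genes are described by their role group.

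Alternatives were RLE scaling, library size only, DESeq2 1.42.0, a filter of 1 CPM in 3 libraries, no filter on low counts, only the groups compared, a replicate block, a length and GC correction (splines with 5 degrees of freedom, as an offset), the block with that correction, and leaving out each of the 12 libraries.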

Additional observations from a re-analysis of the deposited data

Results flagged for a closer look

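For 11 chaperone genes the dTAG-13 effect differed between cells with and without doxycycline by edgeR's test of that difference (adjusted p under 0.05 by Benjamini-Hochberg over all genes), where 22.9% of all genes were called. On the log2 scale, the effect with doxycycline minus that without it was 0.281 for Hspa5, 0.23 for Manf, 0.204 for Hsp90ab1, 0.175 for Herpud1, 0.166 for Dnajb1 and 0.097 for Calr. It was -0.232 for Sel1l, -0.213 for Edem1, -0.168 for Hsp90b1, -0.122 for P4hb and -0.078 for Pdia3. Each difference rests on 1 biological sample per group.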

How the results depend on the processing

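The number of chaperone genes called stayed within 1.5 times for RLE scaling, DESeq2, both other filters and the fit of only the groups compared, in each comparison and direction in which they gave a value. Scaled by library size only, 7 were higher with doxycycline, 17 with dTAG-13 against control, and 2 higher and 13 lower with both agents against dTAG-13, and the difference of dTAG-13 effects was positive for 3 and negative for 10. That scaling also moved the calls over all genes, from 44.26% to 61.31% higher with doxycycline, from 48.34% to 62.79% with dTAG-13, from 52.7% to 30.28% for both against dTAG-13 and from 57.8% to 25.23% for the difference. The length and GC correction gave 34.17% for doxycycline and 68.82% for the difference. For both agents against dTAG-13 it left 9 chaperone genes called, 4 of them lower, and together with the replicate block 7 called, 3 higher and 4 lower.

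The replicate block called 13, 23, 31, 14 and 11 chaperone genes in the 4 comparisons and the difference, and 4172, 7938, 8205, 2490 and 2810 of all genes. The deviations of same-numbered libraries correlated at -0.021 to 0.08 over 18 pairs and those of others at -0.061 to 0.066 over 36 pairs, so the numbers did not pair the libraries.

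Of 206 results for single genes, 38 values under other settings turned direction and none did on leaving out 1 library, counting a change of sign where at least 1 of the values was called. With scaling by library size only, the uncalled values of Hyou1, Edem1 and Sel1l for dTAG-13 against control also changed sign, to 0.055, 0.048 and 0.032. So did those of Dnajc3, Dnajb11 and Dnajb1, to 0.059, 0.044 and 0.079. With dTAG-13 against control, the length and GC correction without and with the block gave -0.083 and -0.082 for Vbp1, -0.178 and -0.177 for Hsp90b1, 0.123 and 0.124 for Edem1, and with either 0.153 for Hyou1, -0.1 for Creld2, -0.099 for Pdia4, 0.157 for Sel1l, 0.068 for Syvn1, -0.084 for Stip1 and -0.046 for Ahsa1. For dTAG-13 added to doxycycline it gave 0.186 and, with the block, 0.187 for Hyou1, and with either 0.01 for Atf6, -0.117 for Creld2, -0.089 for Calr, -0.105 for Pdia4, 0.012 for Syvn1, -0.049 for Stip1 and -0.019 for Ahsa1. Library size only gave 0.082 for Hspa5 and 0.017 for Calr with dTAG-13 against control. The cause of these changes was not tested.

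Leaving out 1 library gave 11 to 15 calls for doxycycline (2 to 6 higher, 8 to 11 lower), 22 to 24 for dTAG-13 (10 to 11 and 11 to 13), 29 to 31 for dTAG-13 added to doxycycline (14 to 16 and 15 to 16), 9 to 14 for both against dTAG-13 (4 to 7 and 4 to 7) and 9 to 14 for the difference (5 to 9 and 4 to 6). Over all genes the calls were 3485 to 4449, 7482 to 8075, 7734 to 8341, 1990 to 2832 and 2374 to 3042 in the same order. Depth limits Derl3, Hspb1, Hspa1a and Cryab, whose few reads allow no statement on small changes.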
